A study of Mus musculus with 4 samples.

Results

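Collagens are the structural proteins of the extracellular matrix, each built from alpha chains that wind into a helix, and every chain has a gene of its own. Fibrillar collagens are secreted in the skin mainly by dermal fibroblasts, while keratinocytes are known to make the anchoring fibril collagen and parts of the basement membrane on which they rest. The genes described here are the mouse protein-coding genes whose symbol is Col, a number, the letter a and a number, on the autosomes of GRCm38 (mm10) and without Col17a1. The rule gave 41 of the 20665 autosomal protein-coding genes of the RefSeq table. They comprise 5 dermal fibrillar genes (Col1a1, Col1a2, Col3a1, Col5a1 and Col5a2) and 36 other collagens.

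Hair matrix keratinocytes, which divide in the follicle bulb and build the hair shaft, were collected as primary cells at postnatal day 4.5 and their DNA was bisulfite sequenced across the genome. The groups were 2 Tet2/Tet3 DKO libraries, made with Krt14-Cre, and 2 WT libraries. TET enzymes oxidise methylated cytosine, which can lead to demethylation, while bisulfite treatment does not separate the methylated from the hydroxymethylated base. The Krt14 promoter drives Cre in keratinocytes of stratified epithelium, so that mesenchymal cells of the skin are not its target. The labels give neither the sex of the animals, nor whether libraries came from separate animals, nor whether the WT carried Cre or floxed alleles. All levels below are group means of the authors' deposited table, which lists regions and holds no values per library and no read depth, so no difference has a replicate error and none was tested. The table numbers its groups and was titled with WT before DKO, so group 1 was read as the WT, and every direction rests on this reading. Where a spread estimate is given, it is the one the authors' deposited table carries for the region.

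A region counts here as gained where the DKO level was at least 20 percentage points higher, and as lost where it was at least 10 points lower. Each gene window is the gene with 5 kb on either side. The windows of all 41 collagens held listed regions, 1210 different regions in all, 13 of them in the windows of 2 collagens. A level is an average over the cells of a library, so that a change in the cells present and a change in methylation per cell cannot be told apart.

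The letters before the start of a few collagen genes show how different their starts are in CpG, the dinucleotide that carries methylation in mammals. The first 3 are dermal fibrillar genes, with CpGs at Col1a2, none at Col3a1 and the most at Col5a1. The other 2 have a listed region that reaches their start, flat at Col16a1 and raised in the DKO at the inner start of Col18a1. The sequences are from RefSeq on GRCm38.p6, written 5′ to 3′ on the strand of the gene and ending at the base before the start, with every CG in capitals.
Col1a2, chr6:4505368-4505617, plus strand: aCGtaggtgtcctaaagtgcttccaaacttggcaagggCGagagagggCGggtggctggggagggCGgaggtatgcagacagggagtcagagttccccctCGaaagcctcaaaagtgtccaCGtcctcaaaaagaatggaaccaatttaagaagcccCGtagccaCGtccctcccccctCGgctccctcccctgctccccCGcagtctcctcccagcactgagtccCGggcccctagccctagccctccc
Col3a1, chr1:45311288-45311537, plus strand: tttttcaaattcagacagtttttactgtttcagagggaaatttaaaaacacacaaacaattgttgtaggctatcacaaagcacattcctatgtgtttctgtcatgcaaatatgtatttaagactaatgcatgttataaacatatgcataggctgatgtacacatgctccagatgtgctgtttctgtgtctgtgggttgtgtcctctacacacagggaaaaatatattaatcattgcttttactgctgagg
Col5a1, chr2:27886175-27886380, plus strand: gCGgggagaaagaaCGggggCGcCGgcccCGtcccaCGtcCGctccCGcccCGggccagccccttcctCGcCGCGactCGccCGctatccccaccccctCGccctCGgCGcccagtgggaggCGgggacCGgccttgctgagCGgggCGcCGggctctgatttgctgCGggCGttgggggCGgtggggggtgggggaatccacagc
Col16a1, chr4:130047590-130047816, plus strand: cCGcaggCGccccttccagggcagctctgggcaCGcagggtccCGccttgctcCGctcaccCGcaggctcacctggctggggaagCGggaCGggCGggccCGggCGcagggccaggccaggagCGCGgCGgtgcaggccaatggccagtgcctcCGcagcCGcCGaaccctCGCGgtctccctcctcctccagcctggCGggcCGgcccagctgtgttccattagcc
Col18a1 inner start, chr10:77113706-77113955, minus strand: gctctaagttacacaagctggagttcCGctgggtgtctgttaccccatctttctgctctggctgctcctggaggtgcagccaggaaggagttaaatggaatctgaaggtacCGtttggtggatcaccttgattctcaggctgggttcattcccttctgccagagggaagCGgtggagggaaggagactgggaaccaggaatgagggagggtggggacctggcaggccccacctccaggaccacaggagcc
These stretches hold 11 CpGs at Col1a2, 0 at Col3a1, 25 in 206 bases at Col5a1, 21 in 227 bases at Col16a1 and 3 at the inner start of Col18a1. The RefSeq promoter table had entries for 32 of the 41 collagens, 35 entries in all, and none for Col1a1, Col2a1, Col4a3, Col5a2, Col9a3, Col12a1, Col14a1, Col22a1 and Col26a1. Over the 250 bases before the start that each entry gives, the collagen entries had a median of 10 CpGs (0 to 31). The median over all 31396 autosomal entries was 6. The motif searched was CG, which reads the same on both strands. It was absent from 4 collagen entries and from 7.64% of all entries.

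Listed regions were sparser at the dermal fibrillar collagens, apart from Col5a1. Per 100 kb of window there were 24.5 at Col5a1 and 13.5 at the other 4 dermal genes, with 19.6 at Col1a2. The value was 23.6 for the other collagens and 23.2 over all genes. The 5 dermal windows held 75 listed regions, of which 18 had gained (24%) and none was lost. Of the 1135 regions at the other collagens 261 had gained (23.0%), and of all 474611 autosomal regions 23.3%. Col5a1 alone held 14 of the 18 gains. Without it the dermal share was 4 of 35 regions (11.4%), a comparison added after the values were seen. Of those 35 regions, 19 lay at Col5a2, which had no gain, so this share depends largely on that gene. The median level over the dermal regions was 79.4% in the DKO and 75.9% in the WT. Over the regions of the other collagens it was 78.0% in the DKO and 76.2% in the WT, and over all autosomal regions 79.2% in the DKO and 77.9% in the WT. Among the regions in the windows of all autosomal protein-coding genes, which match the collagen regions in kind, 26.5% had gained, 1.09% were lost and 55.2% were higher in the DKO by any amount. The 5 dermal fibrillar genes ranged from 0 to 14 gains.

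Col1a1 encodes the alpha 1 chain of type I collagen, the main fibre protein of dermis and bone. Its window on chromosome 11 (gene at 94936224 to 94953042) held 4 listed regions, and gains covered 5.24% of it, the highest share of the dermal genes. The only one inside the gene, at 94946716 to 94947172, was at 82.2% in the DKO and 85.4% in the WT. Beyond the gene end with the higher coordinate, a region at 94953749 to 94954121 was at 77.1% in the DKO and 79.0% in the WT. The gains lay farther out in the authors' deposited table. One of 36 positions at 94955139 to 94956366 was at 76.5% in the DKO and 52.0% in the WT (24.5 points, spread estimate 3.46). The other, of 14 positions at 94957808 to 94957985 and 4766 bp outside the gene, was at 76.2% in the DKO and 50.5% in the WT (25.7 points). Both gained flank regions were of intermediate methylation in the WT and came within 6 points of the intragenic region in the DKO.

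Col1a2 encodes the other chain of type I collagen, and its listed regions included 1 gain and no loss. About 2 kb before the gene start, the region with the lowest level of the window (chromosome 6, 4503306 to 4504081, 7 positions) was at 17.2% in the DKO and 24.03% in the WT. A single position before it, at 4502874, was at 39.6% in the DKO and 45.5% in the WT. Neither of these differences reached 10 points. Just inside the gene, at 4506843 to 4507309, the level was 59.6% in the DKO and 40.1% in the WT in the authors' deposited table, a difference of 19.5 points that falls short of the threshold. The one gain lay towards the far end of the gene, at 4536612 to 4537332, with 81.5% in the DKO and 50.9% in the WT (30.6 points, spread estimate 3.50). Of the 9 regions at Col1a2, 3 had the higher level in the DKO, and the other differences lay between -7.20 and -3.58 points.

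Col3a1, the type III chain of pliable tissues such as young dermis, had 3 listed regions, all inside the gene and close together. A single position at 45317060 on chromosome 1 was at 64.6% in the DKO and 42.5% in the WT, the only gain. The neighbouring region of 8 positions at 45317363 to 45317432 was at 69.8% in the DKO and 50.3% in the WT. The last of them, the position at 45317581, was at 72.5% in the DKO and 55.4% in the WT. These are differences of 22.1, 19.5 and 17.0 points in the authors' deposited table, so the count of 1 gain at Col3a1 turns on 1 position near the threshold. Nothing was listed over its CpG-free start.

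Col5a1, a type V chain that sits inside type I fibrils and limits their diameter, had the most gains of the dermal genes and the largest one. Its window of 163 kb on chromosome 2 held 40 regions, 28 of them higher in the DKO, and the 14 gains covered 4.57% of it. The start stayed unmethylated, at 3.47% in the DKO and 3.62% in the WT over 38 positions (27885910 to 27886284), and at 2.49% in the DKO and 2.73% in the WT over 60 positions (27886854 to 27887200). The largest gain lay at the other end of the gene, with 74 positions at 28037146 to 28039364, at 74.8% in the DKO and 28.5% in the WT (46.3 points, spread estimate 4.86). Another, of 22 positions at 27933948 to 27934238, was at 70.8% in the DKO and 25.3% in the WT in the authors' deposited table. A further one, of 27 positions at 27921875 to 27922894, was at 70.3% in the DKO and 28.7% in the WT. Regions of Col5a1 at 80% or more in the WT differed by -4.29 to 3.93 points, so that gained and flat regions alternated along the gene.

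Col5a2, the partner of Col5a1 in type V collagen, showed no gain. Its 19 listed regions had medians of 79.4% in the DKO and 80.4% in the WT, and all differences lay between -3.96 and 2.65 points. The lowest WT level there was 64.4%. Col5a2 and Col3a1 are neighbours on chromosome 1, and of the regions listed over both genes only the cluster inside Col3a1 differed by more than 4 points.

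**Figure D1:**
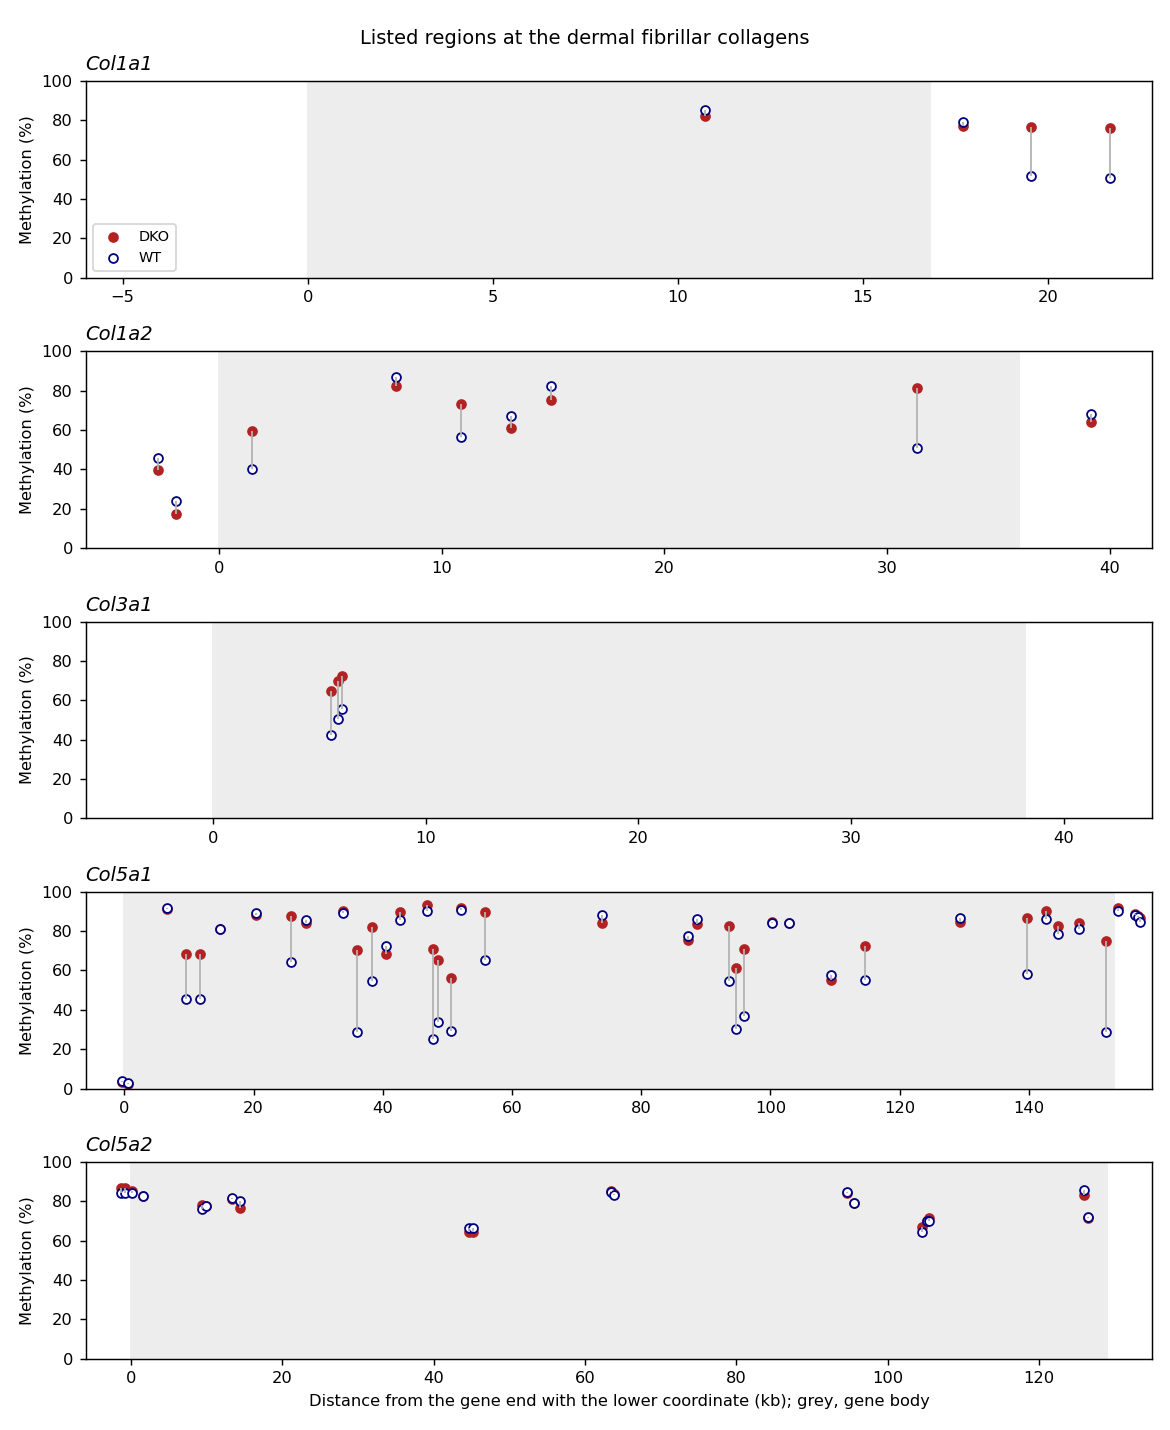
Mean methylation (%, vertical axis) of every listed region in the windows of the 5 dermal fibrillar collagens, against the distance in kb from the gene end with the lower coordinate, with the gene body in grey, the DKO as filled points, the WT as open points and a grey line that joins the values of 1 region. Col5a1 carries 14 gains between flat regions, the gains of Col1a1 lie outside its gene body, and Col5a2 has none.

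Counted by gene, most collagens held a gain, and their windows were long. A gained region lay in 35 of the 41 windows (85.4%), against 67.4% of all 20665 windows, and a listed region of any kind in all 41, against 90.3% of all windows. The median window was 124 kb for collagens, against 27.5 kb over all genes. Among windows under 50 kb, 11 of 13 collagens held a gain (84.6%), against a share of 58.7% over all such windows. From 50 to 150 kb the count was 14 of 17 (82.4%), against 88.7% of all such windows, and above 150 kb it was 10 of 11 (90.9%), against 93.5%. Lengths were not matched within a bin. In windows under 50 kb, gained regions covered a mean of 2.09% at the collagens and 2.76% over all genes, with medians of 1.57% and 1.05%. The percent of the window covered by gained regions averaged 2.56% over the collagens (median 1.60%) and 2.82% over all genes (median 1.55%). It was above the mean of all genes in 10 collagens and above the median in 22. Of the 287 gains counted over the members, 166 had at least 10 positions and 42 had 1 or 2. The 6 collagens without a gain were Col5a2, Col5a3, Col11a2, Col6a2, Col6a5 and Col22a1. Near the threshold, the smallest gains were 20.24 points at Col8a1 and 20.25 points at Col4a4, and the largest differences below it were 19.9 points at Col7a1 and at Col14a1.

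**Figure D2:**
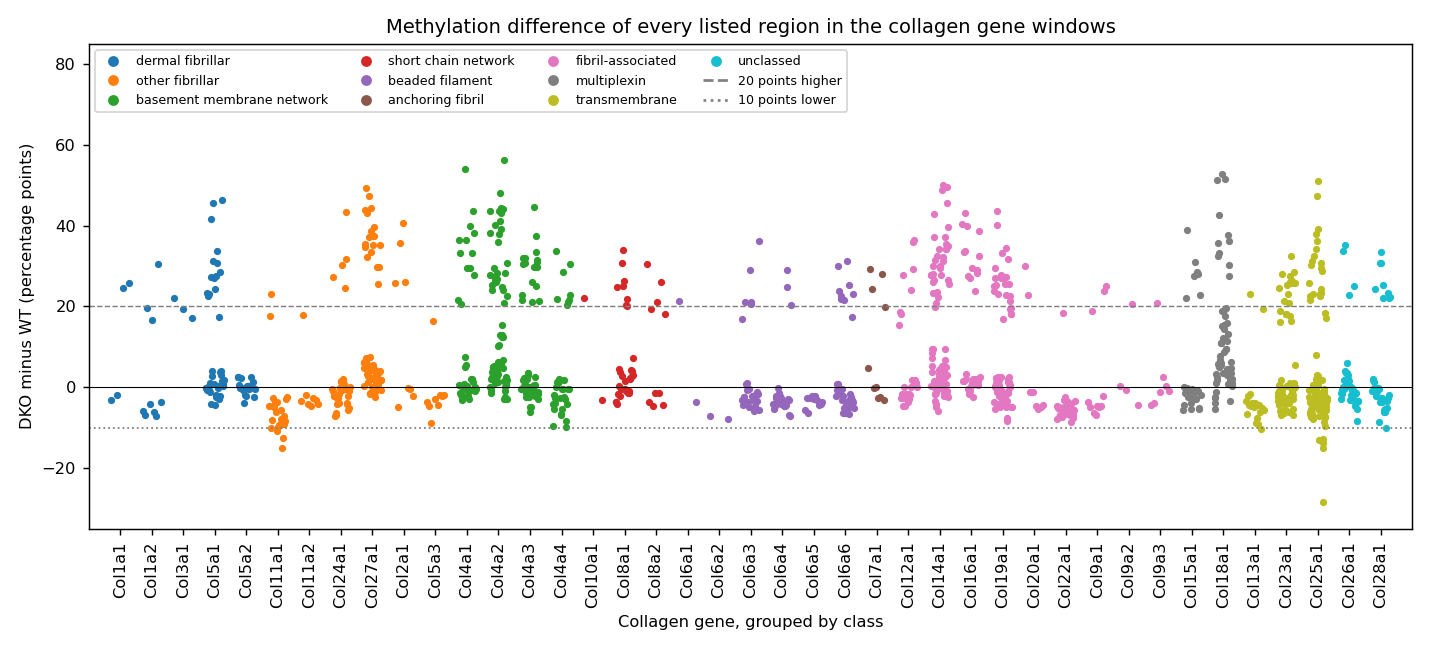
Difference in methylation (DKO minus WT, percentage points) of each listed region in each collagen window, with the genes grouped and coloured by class and 1 point for each region, a dashed line at the 20-point gain and a dotted line at the 10-point loss. The highest values lie at Col4a2 (56.4), Col4a1 (54.1) and Col18a1 (52.7), and the lowest at Col25a1 (-28.4).

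**Figure D3:**
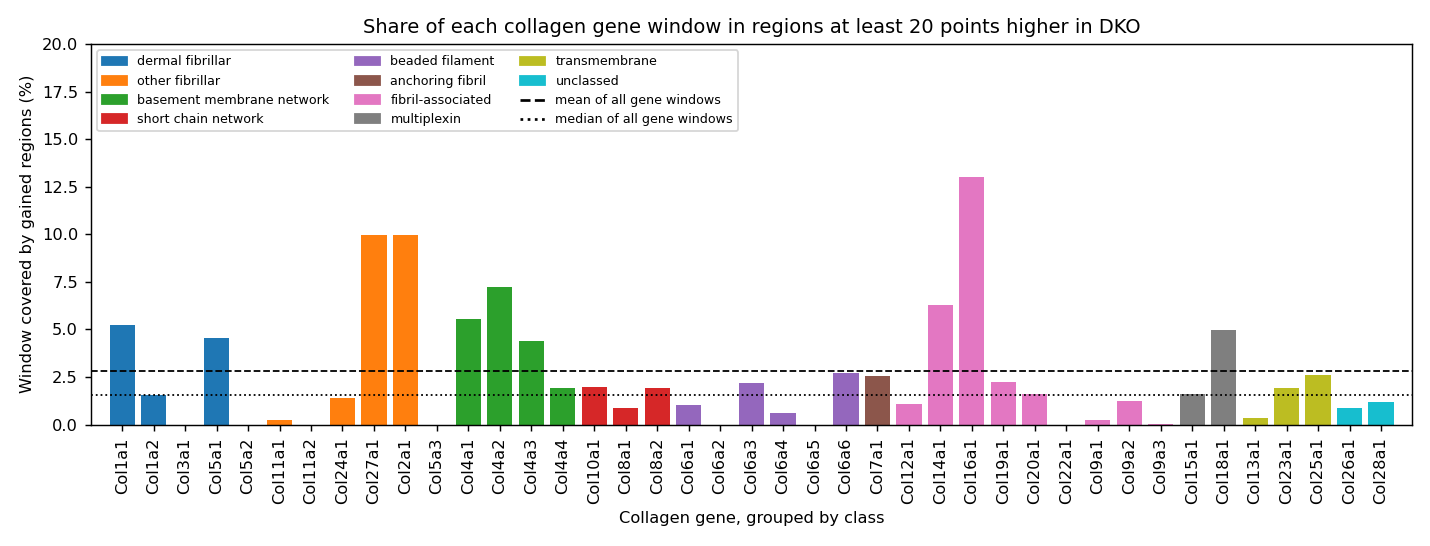
Percent of each collagen window that lies in gained regions, with bars coloured by class, a dashed line at the mean (2.82%) and a dotted line at the median (1.55%) of all autosomal gene windows. Col16a1 stands highest with 13.0%, followed by Col2a1, Col27a1 and Col4a2.

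The remaining fibrillar genes ranged from dense gains to none. Col2a1 encodes the cartilage collagen, and gains covered 9.96% of its window, the highest share of the class. In the authors' deposited table, 4 of its 8 regions had gained, the largest at chromosome 15, 97996888 to 97998443, with 82 positions at 77.8% in the DKO and 37.0% in the WT (40.7 points). Towards the gene end with the higher coordinate, 180 positions at 98002447 to 98004565 were at 2.94% in the DKO and 3.39% in the WT. Col27a1, a fibrillar collagen of developing cartilage, had 19 gains among 60 regions (31.7%), over 9.95% of its window, with 55 of the 60 higher in the DKO. Its start held the longest unmethylated stretch, 368 positions at chromosome 4, 63213671 to 63216525, with 3.06% in the DKO and 2.77% in the WT. The next region into Col27a1, at 63216845 to 63217173, was at 49.0% in the DKO and 13.7% in the WT. The largest gain of Col27a1, at 63221636 to 63222810, was at 80.2% in the DKO and 30.9% in the WT (49.3 points, spread estimate 3.54).

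Col24a1, which is related to Col27a1, had 5 gains among 36 regions. The largest, at chromosome 3, 145516227 to 145517201, was at 77.3% in the DKO and 33.8% in the WT in the authors' deposited table. Col11a1, a minor chain of cartilage fibrils, had 1 gain among 24 regions, at 114029038 to 114029469 in the flank before its start (81.9% in the DKO and 58.7% in the WT). Of those 24 regions only 2 were higher in the DKO. Col11a2 and Col5a3 had none past the threshold, with highest differences of 17.8 points at Col11a2 and 16.5 points at Col5a3. The fibrillar genes outside the dermal class thus held 29 gains among 145 regions (20.0%), 19 of them at Col27a1.

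The type IV genes, which form the network of basement membranes, had the highest share of gained regions among the classes. Of their 187 listed regions 60 had gained (32.1%), against 26.5% of the regions in all gene windows and 23.3% of all autosomal regions, and all 4 genes held several. Col4a1 and Col4a2 encode the chains found in nearly every basement membrane and start back to back on chromosome 8. Their shared start, 324 positions at 11311714 to 11313886, was at 2.88% in the DKO and 2.83% in the WT. In the authors' deposited table Col4a2 had 28 gains among 75 regions, over 7.21% of its window, and 68 of the 75 were higher in the DKO. The largest, with 28 positions at 11414021 to 11414749 inside the gene, was at 71.0% in the DKO and 14.6% in the WT (56.4 points, spread estimate 4.19). It was also the largest gain at any collagen.

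A neighbour of that region in Col4a2, at 11411878 to 11412269, was at 63.7% in the DKO and 19.6% in the WT. Another intragenic region of Col4a2, at 11382383 to 11383011, was at 56.0% in the DKO and 12.4% in the WT. By contrast the region at 11343237 to 11343616 was at 17.1% in the DKO and 12.8% in the WT, so that not every low region of Col4a2 had gained. Col4a1 had 13 gains among 37 regions, the largest at 11257192 to 11257932 with 79.6% in the DKO and 25.5% in the WT (54.1 points). Of the gains in the Col4a2 window, 3 lay inside Col4a1, between 1.94 and 5.33 kb from the Col4a1 start.

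Col4a3 and Col4a4, chains of the kidney and inner ear basement membranes, also share a start. There, 34 positions at chromosome 1, 82587089 to 82587464, were at 9.56% in the DKO and 9.94% in the WT. Col4a3 had 17 gains among 52 regions, the largest at 82687882 to 82688830 (84.8% in the DKO and 40.1% in the WT, in the authors' deposited table). Col4a4 had 8 among 34, the largest at 82473902 to 82474902 (72.1% in the DKO and 38.3% in the WT). The low region at the start of each pair was flat. The gain nearest the Col4a4 start, 3 positions at 82586178 to 82586182, was at 78.1% in the DKO and 56.4% in the WT. It lay 0.854 kb inside Col4a4, and all other gains lay farther from these starts.

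Col7a1 encodes the anchoring fibril that ties the epidermal basement membrane to the dermis, and keratinocytes are a known source of it. Its 10 listed regions had medians of 76.3% in the DKO and 59.0% in the WT, and 3 had gained. In the authors' deposited table a pair of positions 607 bp before the gene start, at chromosome 9, 108952899 to 108952979, were at 42.9% in the DKO and 18.6% in the WT. Farther upstream, 12 positions at 108950476 to 108950847 were at 73.1% in the DKO and 43.8% in the WT (29.4 points, spread estimate 3.41). Inside the gene, 26 positions at 108970370 to 108970976 were at 79.6% in the DKO and 51.6% in the WT. The window of Col7a1 also reaches Ucn2, Uqcrc1 and Pfkfb4, and none of these 3 gains overlapped another gene.

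The beaded filament genes, which encode the type VI microfibrils around cells, lay at the low end. Only 17 of their 103 regions had gained (16.5%), and 23 (22.3%) were higher in the DKO by any amount, against 55.2% of the regions in all gene windows and 48.9% of all autosomal regions. Col6a2 had 2 listed regions and Col6a5 had 11, all lower in the DKO, with differences between -7.81 and -2.09 points. Col6a3 held the largest gain of the class, 22 positions at chromosome 1, 90845037 to 90845668, 1036 bp outside its start, at 65.1% in the DKO and 28.8% in the WT (36.3 points, spread estimate 4.30). At the start itself, 27 positions at 90843455 to 90844026 were at 64.4% in the DKO and 69.9% in the WT in the authors' deposited table. Col6a6 had the highest covered share of the class, 2.73%, from 8 gains among 36 regions. Of the others, Col6a1 had 1 gain (70.1% in the DKO and 48.7% in the WT) and Col6a4 had 3.

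The fibril-associated collagens, which bind to the surface of fibrils, contained the gene with the densest gains and one of the longest genes without any. Col16a1 had 13 gains among 32 regions, over 13.0% of its window. Its start, 90 positions at chromosome 4, 130047432 to 130048149 over the CpG-rich stretch printed above, was at 6.32% in the DKO and 4.83% in the WT. The next region into Col16a1, at 130048393 to 130048837, was at 69.8% in the DKO and 36.4% in the WT. The largest gain of Col16a1 lay 3.11 kb from the start, at 130050452 to 130051401, with 57.8% in the DKO and 14.5% in the WT (43.2 points) in the authors' deposited table. Gains also lay in both of its flanks, at 130043792 to 130044733 (69.1% in the DKO and 28.6% in the WT) and at 130099407 to 130100604 (68.9% in the DKO and 30.3% in the WT).

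Col14a1, a collagen of dermis and tendon, had the highest number of gains, 33 among 86 regions, over 6.27% of its window. The 3 largest lay inside the gene on chromosome 15. The region at 55465398 to 55466891 was at 77.6% in the DKO and 27.4% in the WT (50.1 points), and its neighbour at 55463709 to 55464953 was at 80.4% in the DKO and 31.7% in the WT in the authors' deposited table. Between them in size was a region farther along Col14a1, at 55498829 to 55499092, with 92.0% in the DKO and 42.5% in the WT (49.5 points). An unmethylated region at one end of the gene, 50 positions at 55307992 to 55308522, was at 2.84% in the DKO and 2.58% in the WT. Col22a1, of tissue junctions such as that of muscle and tendon, had no gain among 33 regions in a window of 365 kb, and 1 of the 33 was higher in the DKO, at 65.4% in the DKO and 46.9% in the WT (18.4 points). Col12a1 had 5 gains, Col19a1 20, Col9a1 and Col20a1 2 each, and Col9a2 and Col9a3 1 each. The only gains of Col9a2 and Col9a3 lay within 1 point of the threshold, at 20.7 points for Col9a2 and 20.9 points for Col9a3.

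The multiplexins Col15a1 and Col18a1 encode basement membrane zone collagens, and cleavage of the Col18a1 product releases endostatin. Col18a1 had 11 gains among 57 regions, and 51 of the 57 were higher in the DKO. The outer start of the gene was flat, with 171 positions at chromosome 10, 77165321 to 77166752, at 4.24% in the DKO and 3.99% in the WT. At the inner start, whose sequence is printed above, 39 positions at 77113139 to 77113706 were at 27.97% in the DKO and 12.8% in the WT (15.2 points). In the direction of the outer start, 30 positions at 77119172 to 77119694 were at 26.2% in the DKO and 11.9% in the WT. On its other side, 39 positions at 77109577 to 77110596 were at 71.0% in the DKO and 18.3% in the WT (52.7 points, spread estimate 4.17) in the authors' deposited table. The level differed by 0.25 points at the outer start of Col18a1 and by 15.2 points at the inner one. Col15a1 had 7 gains, the largest at chromosome 4, 47252072 to 47252359 (64.5% in the DKO and 25.5% in the WT), and 8 of its 29 regions were higher in the DKO.

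The short chain genes Col8a1, Col8a2 and Col10a1, whose products form sheets or lattices, held 12 gains among 43 regions (27.9%). The largest of at least 10 positions lay in Col8a1, at chromosome 16, 57677904 to 57678493, with 79.5% in the DKO and 45.5% in the WT (34.0 points). Col10a1, the collagen of hypertrophic cartilage, had the highest covered share at 1.97%, from 1 region before its start that lies inside Nt5dc1 (64.0% in the DKO and 42.0% in the WT in the authors' deposited table). The unclassed genes were Col26a1 and Col28a1. Col26a1 had 4 gains among 39 regions, up to 35.3 points at chromosome 5, 136762526 to 136763032 (69.8% in the DKO and 34.5% in the WT). Col28a1 had 9 among 36, among them a pair at its start, of which 4 positions at chromosome 6, 8192921 to 8193070 were at 67.6% in the DKO and 44.4% in the WT.

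The transmembrane collagens had the highest share of losses among the classes, most of them at 1 gene, Col25a1. Their 198 regions held 34 gains (17.2%) and 6 losses (3.03%), against 1.09% losses in all gene windows and 2.11% among all autosomal regions. Col25a1, a collagen of neurons needed for motor innervation of muscle, had 20 gains and 5 losses among 106 regions. Its largest gain of at least 10 positions, at chromosome 3, 130369785 to 130370828, was at 72.5% in the DKO and 25.1% in the WT (47.4 points). Of the losses of Col25a1, 4 lay close together in the later part of the gene. The largest, 5 positions at 130508237 to 130508603, was at 45.6% in the DKO and 74.0% in the WT in the authors' deposited table, the only loss past 20 points at any collagen. Near it, 15 positions at 130504562 to 130504944 were at 46.4% in the DKO and 61.4% in the WT, and 20 positions at 130485894 to 130486872 were at 62.6% in the DKO and 75.4% in the WT.

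Col25a1 lies 2.86 Mb from Tet2, one of the deleted genes. Within 5 Mb of Tet2, 2.37% of 2240 listed regions were losses, against 3.96% on the rest of chromosome 3 and 4.72% in the Col25a1 window. The part of this neighbourhood in the losses was not tested. Col23a1 had 13 gains among 71 regions, up to 32.5 points, and Col13a1, of neuromuscular junctions, had 1 gain among 21.

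Losses were found at 4 of the 41 collagens (9.76%), against 7.06% of all windows, which are shorter, and none of the 4 was a dermal fibrillar gene. Counted by region, 0.91% of the collagen regions were lost, against 1.09% of the regions in all gene windows and 2.11% of all autosomal regions. Col11a1 had 4 of the 11 losses, Col25a1 5, and Col13a1 and Col28a1 1 each. Col11a1 and Col25a1 both lie on chromosome 3, where 3.96% of the listed regions more than 5 Mb from Tet2 were losses. At Col11a1 the largest was a region of 13 positions at chromosome 3, 114133161 to 114134039, with 62.0% in the DKO and 77.0% in the WT (a difference of -15.01 points). At Col13a1, 5 positions at chromosome 10, 61935734 to 61935976 were at 27.1% in the DKO and 37.4% in the WT. At Col28a1, 4 positions at chromosome 6, 8164557 to 8164811 were at 61.0% in the DKO and 71.2% in the WT in the authors' deposited table. All 11 losses lay inside the gene bodies, and Col25a1 and Col11a1 were the only collagens with a loss in a region of at least 10 positions.

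No region above 80% in the WT can rise by 20 points, so the gain rule in part fixes the WT level. Most gained regions of the collagens had an intermediate WT level, from 20% to 60%. Their medians were 74.8% in the DKO and 43.1% in the WT, with a median length of 361 bp and 12 positions. Over all autosomal gains the medians were 76.3% in the DKO and 45.6% in the WT, with 346 bp and 11 positions. Of the collagen regions with a WT level of 20% to 40%, 99 of 116 had gained (85.3%), against 86.2% of all such autosomal regions. From 40% to 60% it was 148 of 211 (70.1%), against 76.4%, and from 60% to 80% 17 of 371 (4.58%), against 9.64%. Below 20% it was 15 of 37 (40.5%), against 28.9% of all such regions. As only listed regions were counted, these shares do not describe unlisted sequence of the same level. For the dermal fibrillar genes 7 of 8 regions from 20% to 40% had gained and 9 of 16 from 40% to 60%.

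**Figure D4:**
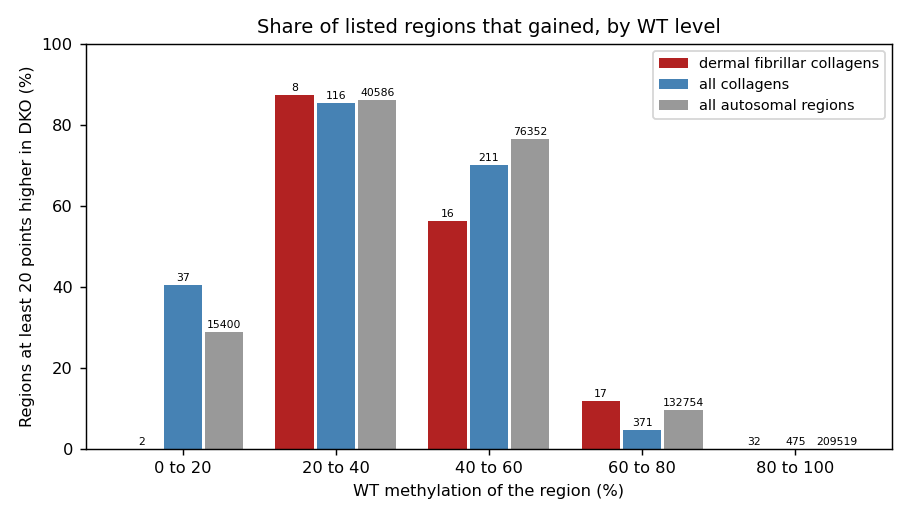
Percent of listed regions that had gained (vertical axis) by the WT methylation level of the region (horizontal axis, %), for the dermal fibrillar collagens, all collagens and all autosomal regions, with the number of regions above each bar. Shares were highest from 20% to 40% in all 3 sets, at 87.5%, 85.3% and 86.2%.

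Low regions of the collagens were mostly flat at gene starts, and inside genes some had gained and others had not. Within 1 kb of a gene start, 9 different regions were below 10% in the WT, at Col4a1 with Col4a2, Col4a4, Col5a1, Col8a1, Col9a2, Col16a1, Col18a1 and Col27a1, and none exceeded 9.56% in the DKO. Of the 15 regions under 20% in the WT that had gained, 14 lay in gene bodies, as at Col4a2, Col14a1, Col16a1, Col18a1, Col25a1 and Col27a1, and the other before Col7a1. Low intragenic regions without a gain included one of Col19a1 at 24286472 to 24286618 (9.45% in the DKO and 9.36% in the WT), one of Col26a1 at 136790727 to 136791162 (16.4% in the DKO and 18.4% in the WT), and that of Col4a2 given above. Those of Col18a1 were not flat but 14.3, 15.2 and 18.8 points higher in the DKO, short of the threshold. The last, 2 positions at 77111859 to 77111871, was at 26.9% in the DKO and 8.05% in the WT. By place, a region was counted for each collagen window that holds it. The start shared by Col4a1 and Col4a2 thus counts for each of these genes. Counted this way, 7 of 24 regions within 1 kb of a known start had gained (29.2%). In the gene bodies of known strand it was 193 of 840 (23.0%), in upstream flanks 13 of 42 (31.0%) and in downstream flanks 8 of 40 (20.0%). No shares by place over all genes are given, so whether the collagens differ from other genes here was not tested. The strand of 9 collagens was not in the promoter table, so regions as counted for their windows are not included. The number of gains followed the number of listed regions across the 41 genes (Spearman's rho 0.83), and window length less closely (rho 0.52). Both are given as descriptions, since longer windows hold more of each.

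Genes that modify, crosslink, bind or degrade collagen also held gains. The list of 41 genes was chosen with earlier results of these data known. A gain lay in the windows of 36 of them (87.8%), against 67.4% of all windows, and a loss in 3 (7.32%), against 7.06%. Mean coverage by gains was 3.20% for this list, against 2.82% over all genes. Median coverage was 3.10% for the list, against 1.55% over all genes. The median window was 37.0 kb in the list and 27.5 kb over all genes. Counted by region, 190 of 742 had gained (25.6%), against 26.5% of the regions in all gene windows. The highest coverage was at Mmp14, a membrane protease that cleaves collagen (11.3%), and Mrc2, a receptor that takes up collagen (6.34%). Plod1, a lysyl hydroxylase (6.29%), and P3h1, a prolyl hydroxylase (6.28%), came next. At Mmp14, chromosome 14, 54427830 to 54428797, the level was 90.4% in the DKO and 51.0% in the WT in the authors' deposited table. The losses were at Adamts3, a procollagen protease (58.2% in the DKO and 73.6% in the WT), Ddr2, a collagen receptor (73.6% in the DKO and 85.4% in the WT), and Colgalt2, a collagen galactosyltransferase (60.4% in the DKO and 71.6% in the WT). The 5 without a gain were P3h3, Crtap, Mia3, Mmp13 and Ctsk.

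For the cell label, marker lists chosen with earlier results of these data known give a description and no test. The 15 marker genes of hair matrix and follicle keratinocytes had listed regions with medians of 82.3% in the DKO and 59.97% in the WT, and gains over a mean of 14.7% of their windows. The 12 markers of fibroblasts and dermal papilla had medians of 83.2% in the DKO and 78.4% in the WT and a mean coverage of 3.47%, and the dermal fibrillar collagens 2.28%. Mean coverage was 5.10% for 6 melanocyte markers, 3.82% for 5 markers of endothelium and mural cells and 2.45% for 4 immune markers. Over all genes it was 2.82%. Median windows were 17.7 kb for the keratinocyte markers, 45.2 kb for the fibroblast and dermal papilla markers and 27.5 kb over all genes. Counted by region, 34.6% had gained at the keratinocyte markers and 27.5% at the fibroblast and dermal papilla markers, against 26.5% in all gene windows. Among the keratinocyte markers, Hoxc13 alone held no gain. Of the other lists, Dpt and Sox2 (fibroblasts and dermal papilla), Tyr (melanocytes) and Rgs5 (endothelium and mural cells) held none. In the authors' deposited table the largest gains at fibroblast markers were at Dcn (89.0% in the DKO and 42.9% in the WT) and Fbln1 (87.2% in the DKO and 41.8% in the WT). The part that other cell types among the collected cells have in these levels was not tested.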

How the data were processed

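Whole-genome bisulfite libraries of hair matrix keratinocytes (2 DKO and 2 WT, grouped by the genotype in the labels) were processed with Trim Galore and Bismark on GRCm38 (mm10) according to the submitters' processing notes, which list names without roles or versions. For the region caller, smoothing and bounds, a description is not given in the sources used here. In the deposited table of 484555 regions, per the file headers, each region has a mean methylation level for each group as a fraction, multiplied here to percentages, and a statistic and a spread estimate, treated as scores of the authors. No extreme statistic lay between -4.02 and 1.53, so that bounds differed by sign and listed gains and losses are not balanced. Among regions with 2 positions, 89.2% spanned 2 bp, so both cytosines of a CpG mostly count. With no reads per library, no p-value or interval of a level could be had, and libraries of a group may be technical replicates.

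Gene ends came from a RefSeq table of GRCm38.p6 without strand, and starts and strands from its promoter table. Regions on the 19 autosomes were assigned to a gene by an overlap of at least 1 bp with the gene and 5 kb on either side. Covered shares count each base once, and class shares count each region once. The members, classes, lists and thresholds were chosen with earlier results of these data known. Named are all dermal fibrillar genes, in each other class the gene with the highest covered share and that with the largest gain of at least 10 positions, all genes with a loss and all genes without a gain, with further members by counts or examples. Of the maturation list, the 4 highest shares and all losses are named. Regions cited for place or neighbourhood, and the single marker genes named from the marker lists, were chosen after their values were seen. The overlap functions were tested on 200 simulated windows against a base-by-base count. Alternatives were a gain of at least 30 points, a loss of at least 20 points, the gene body alone, at least 10 positions, midpoints, and Col5a3 added to the dermal class. Software was matplotlib 3.10.9, scipy 1.17.1, pandas 2.3.3, numpy 2.4.6 and Python 3.11.15.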

Additional observations from a re-analysis of the deposited data

How the results depend on the processing

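Of 44 values recomputed under other settings, 34 stayed within the 95% binomial interval of a share or median over regions, or within a factor of 1.5 for counts and coverage. These intervals treat regions as independent, although regions are not replicates, and for the dermal share the interval ran from 15.8% to 34.8%. Staying within such bounds is thus a loose criterion and does not measure stability. At least 30 points left 23 collagens and 2 dermal fibrillar genes with a gain, 9.33% of dermal and 10.4% of other collagen regions gained, and a mean coverage of 0.951% for the dermal fibrillar genes and 1.51% for the other collagens. A loss of at least 20 points left 1 gene, Col25a1, and at least 10 positions left 2 with a loss. With the gene body alone, dermal coverage was 1.37%, as the gains of Col1a1 lie outside the gene. Without Col5a1, a setting chosen after the data were seen, 11.4% of dermal regions had gained, and 19 of the 35 regions left lay at Col5a2. No paired analysis was possible because the table holds group means and no values per library, and for the same reason no replicate could be left out. The depth is unknown, so what it limits cannot be stated. Col3a1, Col6a1, Col9a2, Col9a3 and Col10a1 count as genes with a gain through 1 region each within 3 points of the threshold, and Col11a1 and Col13a1 through 1 region within 4 points.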
